A study of Mus musculus with 4 samples.

Results

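The genes described here are 10 ligands of the fibroblast growth factor (FGF) family that are read out in the embryonic mouse cochlear duct, *Fgf1*, *Fgf2*, *Fgf3*, *Fgf7*, *Fgf8*, *Fgf9*, *Fgf10*, *Fgf15*, *Fgf18* and *Fgf20*. They were chosen with earlier results of these data known. All 16 probes of the array that carry one of these gene symbols were taken, out of 39429 gene probes for 29924 gene names. Transcripts were measured on 4 two-colour Agilent arrays of E14.5 cochlear ducts. Each array compared 1 pool of ducts of *Sox2-Tbx2LOF* embryos, given in the labels as Sox2(creERT2);Tbx2(fl/fl), with 1 pool of control ducts, given as Tbx2(fl/n.d.), all on the NMRI strain. Arrays 1 and 2 held female pools and arrays 3 and 4 male pools, and the mutant carried Cy5 on arrays 1 and 3 and Cy3 on arrays 2 and 4.

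All pools, controls included, came from dams that were given 4 mg of tamoxifen by mouth at E12.5, and all carried at least 1 floxed *Tbx2* allele. The second *Tbx2* allele of the controls was not determined according to the labels, and the methods describe the controls as cre-negative. The tamoxifen-dependent recombinase CreERT2 was expressed from 1 *Sox2* allele of the mutants, in *Sox2* positive cells, which lie in the sensory part of the epithelium and outside it. Since the controls lacked this insertion, its presence and the loss of *Tbx2* cannot be told apart. The matings given in the methods bring a R26 mTmG reporter allele into mutants and their cre-negative littermates alike. By the same matings such littermates would be Tbx2(fl/fl), while the labels leave the second allele of the controls undetermined. Cochlear ducts of several embryos were pooled for each sample and the spiral ganglion was dissected away. In such whole ducts, fewer cells of a type and less RNA per cell cannot be told apart. All 12 markers of the cochlear epithelium that were listed, among them *Epcam*, *Cdh1*, *Pax2* and *Sox2*, were well above background in all 8 pools. The probe of the targeted gene *Tbx2* had a log2 ratio, mutant over control, of -0.12 (SE 0.037, limma adjusted p = 0.145) and was below 0 on all 4 arrays. Whether this probe lies in the deleted part of the gene was not established, so it does not check the labels.

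FGF ligands are secreted proteins that bind receptor tyrosine kinases of the Fgfr family together with heparan sulfate and signal largely through the MAP kinase pathway, whose targets include the Etv transcription factors and the feedback inhibitors of the Sprouty, Spred and Dusp families. In the developing cochlea *Fgf20* is known as a signal of the prosensory domain, *Fgf10* as a ligand of the neural side of the duct floor, and *Fgf8* as a ligand of inner hair cells that acts on pillar cell precursors through *Fgfr3*. *Tbx2* encodes a T-box transcription factor that acts mostly as a repressor. The comparison asked which of these ligands had a different transcript level in the duct after loss of *Tbx2*.

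The sequences of 3 probes on which the values rest are given here. These are one *Fgf8* probe, the single *Fgf3* probe and one *Fgf20* probe, and they are shown because these ligands were lower in the mutant and because the pair of *Fgf20* probes differs at 1 base. All probes have 60 bases, positions are those of the array files on the mm9 build, and no exon annotation of that build was used. The *Fgf8* probe A_55_P2108109 lies at chr19:45811668-45811727 on the minus strand. The *Fgf3* probe A_51_P205028 lies at chr7:152026667-152028526 on the plus strand, a span of 1860 bases in the genome for its 60 letters, so that it joins separate blocks. The *Fgf20* probe A_55_P2169499 lies at chr8:41365111-41365170 on the minus strand. The capital marks the base at which the other *Fgf20* probe differs.
Fgf8 A_55_P2108109: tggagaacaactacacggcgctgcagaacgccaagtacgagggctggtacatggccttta
Fgf3 A_51_P205028: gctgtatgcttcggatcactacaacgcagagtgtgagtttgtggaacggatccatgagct
Fgf20 A_55_P2169499: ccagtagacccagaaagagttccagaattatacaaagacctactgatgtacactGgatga

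The second *Fgf20* probe, A_55_P2180059 at chr8:41365079-41365138, covers the last 28 bases of the first and continues beyond them. Within these 28 bases the pair differs by the single substitution G55T, counted from the 5′ end of A_55_P2169499, and the capital again marks it.
Fgf20 A_55_P2169499, last 28 bases: caaagacctactgatgtacactGgatga
Fgf20 A_55_P2180059, first 28 bases: caaagacctactgatgtacactTgatga

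Signals are given below as normalized log2 signals of each pool, and ratios as the log2 ratio of mutant over control within an array. A probe was tested where at least 4 of its 8 channel measurements were well above background, and it is called where its limma p value, adjusted by the method of Benjamini and Hochberg over all 27963 tested probes, was below 0.05. Of the 16 FGF ligand probes 12, for 9 of the 10 genes, were tested. Of these 12 probes 9 were called, 7 lower and 2 higher in the mutant, against 3.99% of all tested probes called in either direction, 2.31% called lower and 1.68% called higher. The called probes belong to *Fgf8*, *Fgf20*, *Fgf10*, *Fgf3* and *Fgf7*, which fell, and to *Fgf18*, which rose. Both *Fgf8* probes were called with a change of at least 1.5-fold, which 0.372% of all tested probes were. The *Fgf3* probe and the dimmer *Fgf8* probe passed the filter through the control pools, where they are higher, so the counts over tested probes are a description. So is the share of ligands called, since the ligands were chosen with earlier results of these data known. Of the 10 ligand probes that were well above background in all 8 pools, 7 were called and 5 of these were lower.

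**Figure D1:**
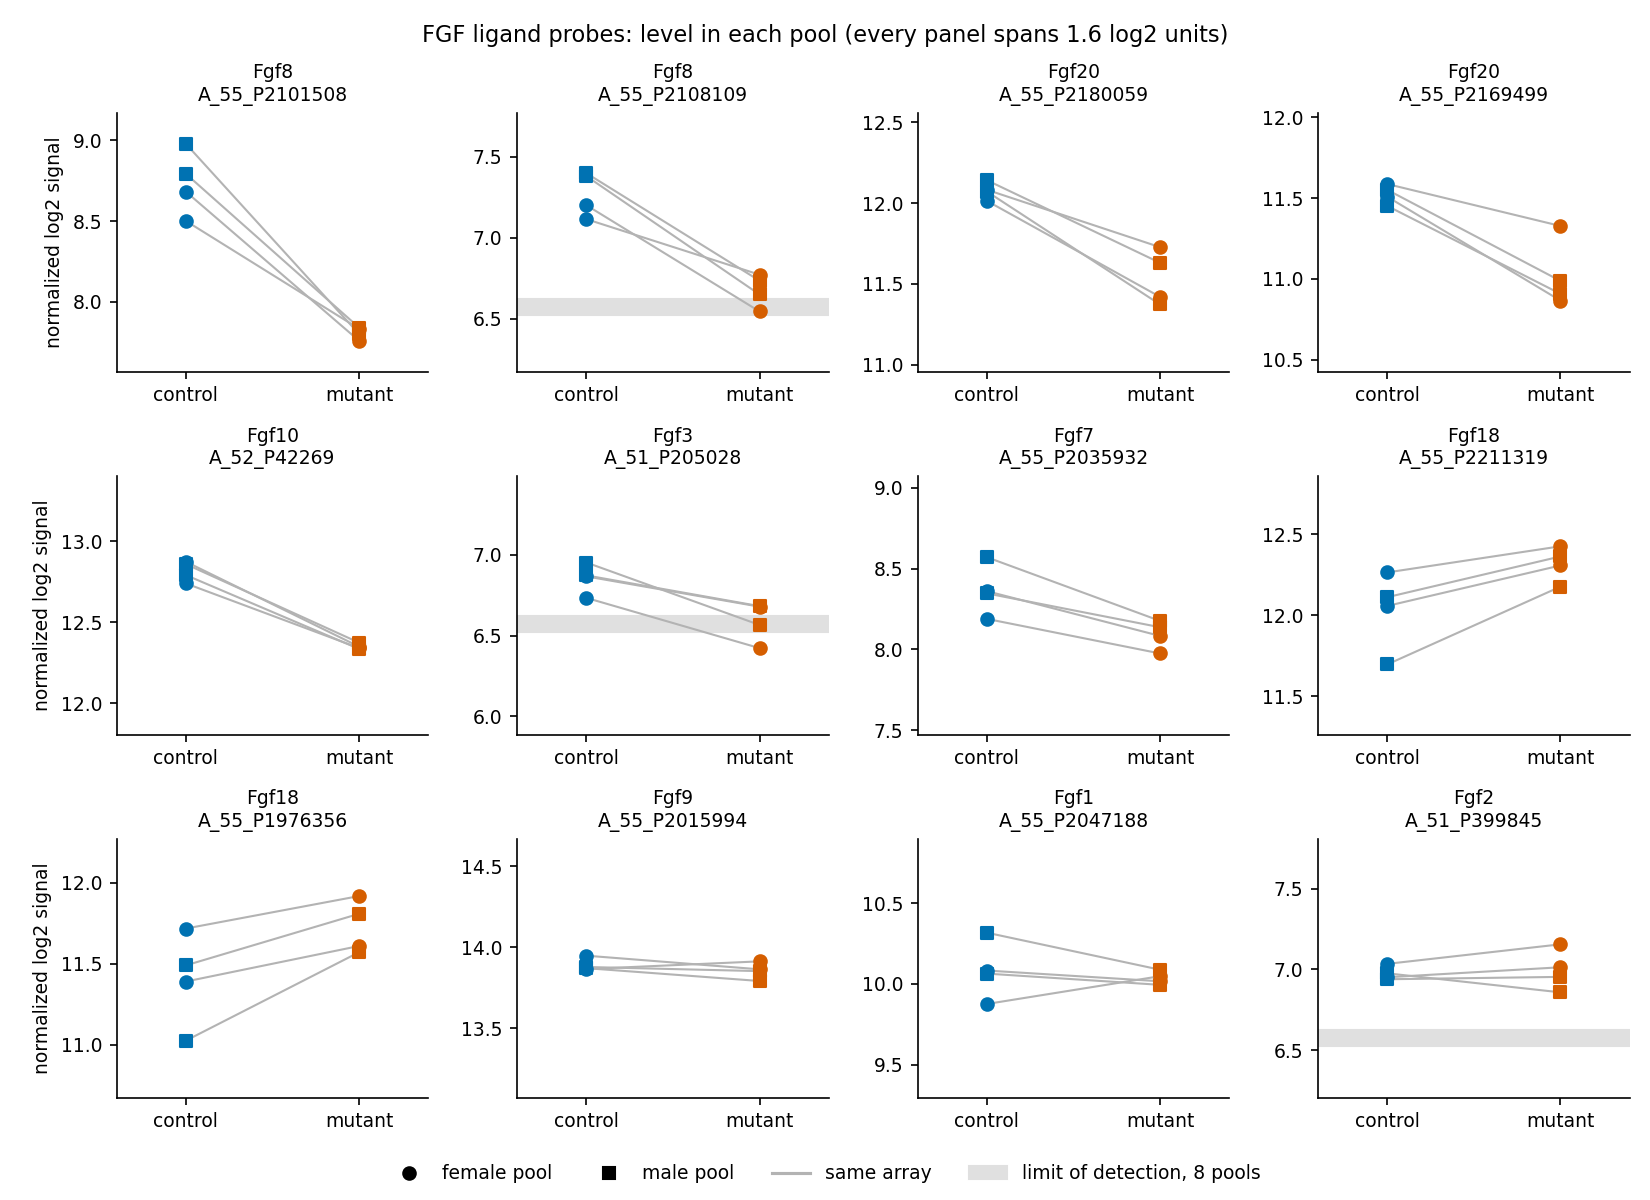
Normalized log2 signal of the 12 tested FGF ligand probes in each of the 4 control pools (blue) and 4 mutant pools (orange), with a grey line joining the pools of 1 array and circles for female and squares for male pools. Panels have different positions but the same height, and the grey band is the lowest signal that counted as well above background in the pools (6.52 to 6.62). The pools of both genotypes are apart for *Fgf8*, *Fgf20*, *Fgf10*, *Fgf3* and *Fgf7*, while those of *Fgf18*, *Fgf9*, *Fgf1* and *Fgf2* overlap.

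*Fgf8* and *Fgf18* belong to the same subfamily of ligands. *Fgf8* was called lower and *Fgf18* higher, though the calls of *Fgf18* did not hold under every way of processing. The brighter *Fgf8* probe, A_55_P2101508 (chr19:45811355-45811414), had signals of 8.68, 8.50, 8.79 and 8.98 in the control pools of arrays 1 to 4. In the mutant pools the same probe had signals of 7.76, 7.83, 7.84 and 7.80. The mutant pools lay close together (SD 0.037, n = 4), all below the lowest control pool, while the controls spread more widely (SD 0.20, n = 4). The mean log2 ratio was -0.93 (SE 0.074, limma adjusted p = 0.000555), or 52.5% of the control level. This was the ligand probe with the lowest ratio of the 12 tested.

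The second *Fgf8* probe, A_55_P2108109, whose sequence is shown above and which lies 253 bases from the first, was dim. It was well above background in 4 of 4 control pools and in 1 of 4 mutant pools. Its signals were 7.20, 7.12, 7.38 and 7.40 in the control pools and 6.54, 6.77, 6.65 and 6.73 in the mutant pools, again without overlap. The log2 ratio was -0.60 (SE 0.054, limma adjusted p = 0.00109). The probe passed the filter through the control pools, where it is higher, so this ratio and its p value are a description. Both probes had their smallest difference on array 2 (-0.67 and -0.34). With Agilent's own background subtraction the ratios were larger in size, -1.24 for the brighter and -1.70 for the dimmer probe, so the size of the fall of *Fgf8* depends on how the background is treated. The third *Fgf8* probe, A_55_P2101506, was not well above background in any pool and was not tested.

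*Fgf18*, a ligand known from skeletal and lung development, was the single ligand of the 10 that was called higher. Its probe A_55_P2211319 (chr11:33017440-33017499) had signals of 12.06, 12.26, 12.11 and 11.70 in the control pools and 12.31, 12.43, 12.36 and 12.18 in the mutant pools. The ranges of the genotypes overlap, since the mutant pool of array 4 lay below the control pool of array 2, but within each array the mutant was higher. The log2 ratio was 0.29 (SE 0.053, limma adjusted p = 0.0302), or 122% of the control level. The other probe, A_55_P1976356, shares 26 bases of its position with the first and so is not an independent reading. It had a log2 ratio of 0.32 (SE 0.057, limma adjusted p = 0.0258), and both probes had their largest ratio on array 4 (0.48 and 0.55). Neither call held with Agilent's processed signals, without a dye term, or without array 1, 3 or 4, where adjusted p lay between 0.0511 and 0.193, and over all alternatives the adjusted p of both probes ranged from 0.00176 to 0.659.

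*Fgf20* and *Fgf9* are close relatives in another subfamily, and *Fgf20* fell while *Fgf9* was not called. The *Fgf20* probe A_55_P2180059 had signals of 12.08, 12.01, 12.07 and 12.14 in the control pools and 11.73, 11.42, 11.37 and 11.63 in the mutant pools. Every mutant pool lay below every control pool, and here the mutant pools spread more (SD 0.17) than the controls (SD 0.052, n = 4 each). The log2 ratio was -0.54 (SE 0.057, limma adjusted p = 0.00229), or 68.8% of the control level. The overlapping probe A_55_P2169499, with the other base at the substitution shown above, had control signals of 11.59, 11.51, 11.45 and 11.55 and mutant signals of 11.33, 10.87, 10.91 and 10.99. Its log2 ratio was -0.50 (SE 0.051, limma adjusted p = 0.00188), so the probes differed in their ratio by less than the standard error of either. Both had their smallest difference on array 1 (-0.35 and -0.26).

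*Fgf9*, an epithelial ligand known to act on the mesenchyme around the duct, had control signals of 13.95, 13.87, 13.87 and 13.88 and mutant signals of 13.86, 13.91, 13.79 and 13.85 at chr14:58728897-58728956. The pools of the genotypes overlap, and the ratio was below 0 on 3 of 4 arrays. Its log2 ratio was -0.04 with a 95% interval from -0.12 to 0.05 (limma adjusted p = 0.656). The difference between *Fgf20* and *Fgf9* was not tested.

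*Fgf3*, *Fgf7*, *Fgf10* and *Fgf22* form the subfamily whose members signal mainly through the epithelial forms of Fgfr1 and Fgfr2. The first 3 fell, while *Fgf22* had a log2 ratio of -0.03 (limma adjusted p = 0.752) and was not called. *Fgf10* (chr13:119580365-119580424) had signals of 12.74, 12.87, 12.79 and 12.86 in the control pools and 12.34, 12.35, 12.34 and 12.37 in the mutant pools. The genotypes were apart and the pools of each lay close together (SD 0.062 in controls and 0.017 in mutants, n = 4 each). The log2 ratios of the arrays, -0.40, -0.53, -0.46 and -0.49, had the smallest spread among the called ligand probes (SD 0.053). The mean of -0.47 (SE 0.035, limma adjusted p = 0.000434) is 72.4% of the control level. *Fgf10* had the lowest adjusted p of the 12 ligand probes tested, and *Fgf8* and *Fgf20* had the larger changes.

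*Fgf7*, known as keratinocyte growth factor and in many organs a product of the mesenchyme, had control signals of 8.36, 8.19, 8.57 and 8.35 and mutant signals of 8.08, 7.97, 8.18 and 8.14 at chr2:125916134-125916193. The genotypes were only just apart, with the highest mutant pool at 8.18 and the lowest control pool at 8.19. The log2 ratio was -0.27 (SE 0.037, limma adjusted p = 0.00779), below 0 on 4 of 4 arrays. Without array 3 the adjusted p was 0.0628 at a log2 ratio of -0.24, and over all alternatives it ranged from 0.00597 to 0.299.

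*Fgf3*, which with *Fgf10* is known from the induction and outgrowth of the inner ear, was well above background in 4 of 4 control pools and in 0 of 4 mutant pools. Its probe had signals of 6.73, 6.87, 6.95 and 6.87 in the control pools and 6.42, 6.68, 6.57 and 6.68 in the mutant pools, without overlap. As the mutant level is only a bound, the control was at least 1.17-fold higher than the mutant, with a fitted log2 ratio of -0.27 (SE 0.035, limma adjusted p = 0.00661). The probe passed the filter only through the control pools, where it is higher, so this ratio and its p value are a description. The bound sets the mean control signal against, on each array, the higher of the mutant signal and the lowest signal that counted as well above background. With Agilent's processed signals the log2 ratio was -1.16, and without array 3 it was -0.25 with an adjusted p of 0.0602, within a range from 0.000818 to 0.274 over all alternatives.

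*Fgf1* and *Fgf2*, ligands without a classical secretion signal, were not called. The tested *Fgf1* probe, A_55_P2047188, had control signals of 9.88, 10.08, 10.06 and 10.32 and mutant signals of 10.05, 10.02, 9.99 and 10.09, with a log2 ratio of -0.05 (95% interval -0.17 to 0.07, limma adjusted p = 0.673). The tested *Fgf2* probe, A_51_P399845, had control signals between 6.94 and 7.03 and mutant signals between 6.86 and 7.16, with a log2 ratio of 0.02 (95% interval -0.09 to 0.13, limma adjusted p = 0.868). Both ratios had different signs on different arrays, and the mutant and control pools overlap. The *Fgf2* probe was dim, and the offset added in the background correction lowers ratios of dim probes. With Agilent's processed signals the *Fgf2* log2 ratio was 0.10 (limma adjusted p = 0.694). A second *Fgf1* probe, A_52_P538673, was well above background in 1 of 8 pools and a second *Fgf2* probe, A_55_P2048705, in 0 of 8, and neither was tested.

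*Fgf15*, an endocrine ligand in the adult and a hindbrain and neural signal in the embryo, was not well above background in any pool and was not tested. Its signals were 6.63, 6.63, 6.62 and 6.78 in the control pools and 6.33, 6.46, 6.30 and 6.45 in the mutant pools. The mutant pools were lower on all 4 arrays, but as no pool of either genotype passed the criterion for a measured signal, no fold change is given. The *Fgf15* probe lies 57.8 kb from the *Fgf3* probe on chromosome 7.

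**Figure D2:**
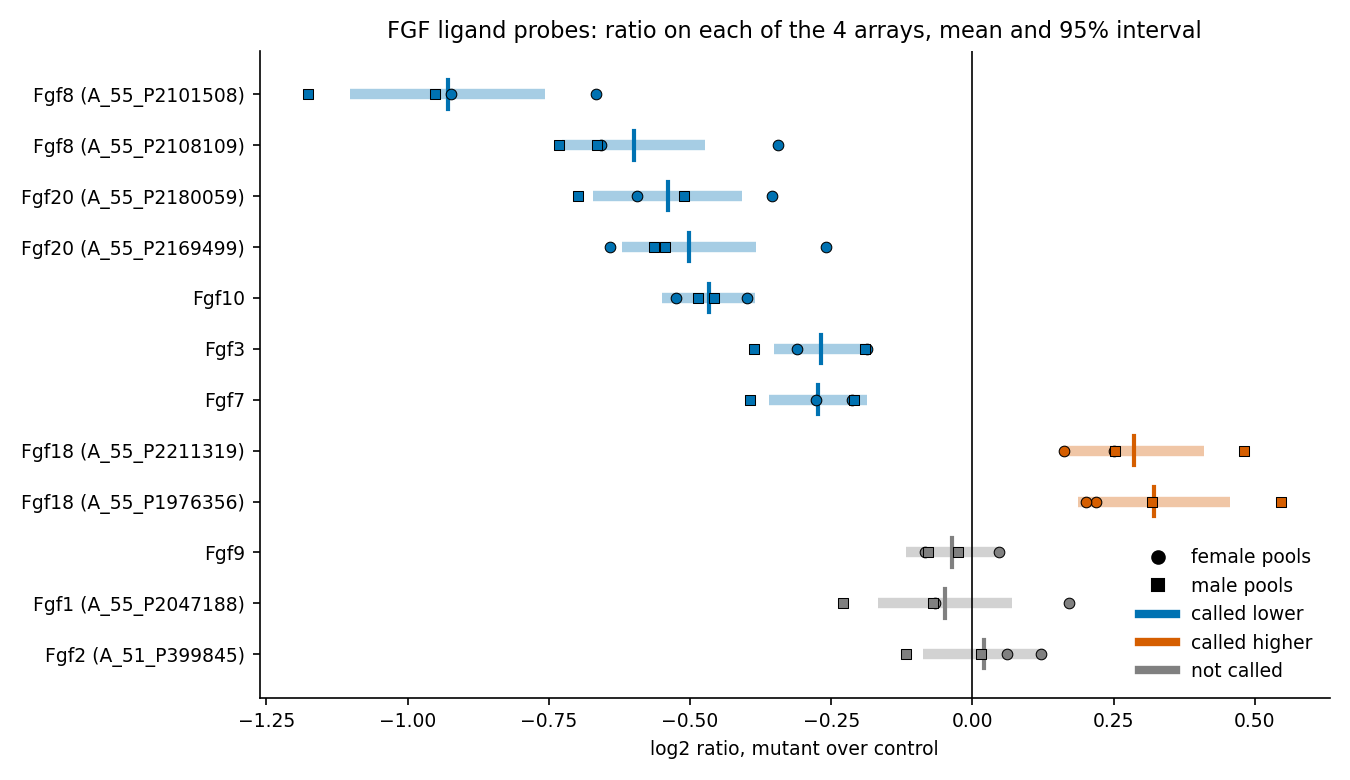
Log2 ratio of mutant over control of the 12 tested FGF ligand probes on each of the 4 arrays (circles female, squares male), with the mean as a vertical tick and its 95% interval from limma as a bar. The 7 probes called lower lie at or below -0.19 on every array, the *Fgf18* probes lie at or above 0.16, and the intervals of *Fgf9*, *Fgf1* and *Fgf2* include 0.

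Ordered by ratio, the called ligand genes ran from *Fgf8* (-0.93) over *Fgf20* (-0.54), *Fgf10* (-0.47) and *Fgf7* (-0.27) to *Fgf18* (0.29), each by its brightest probe. *Fgf3* has no place in this order, since its mutant level is only a bound. The 95% interval of the brighter *Fgf8* probe (-1.10 to -0.76) did not overlap that of *Fgf20* (-0.67 to -0.41), but that of the dimmer *Fgf8* probe (-0.73 to -0.47) did. The dimmer probe was well above background in only 1 of 4 mutant pools, so its interval is a description. With Agilent's processed signals its log2 ratio was -1.70, against -0.55 for *Fgf20* A_55_P2180059. The intervals of *Fgf20* and *Fgf10* (-0.55 to -0.38) overlap as well, so these neighbours are not ordered beyond their spread. All 9 called ligand probes moved the same way on all 4 arrays, as did 86.4% of all called probes. The pools of the genotypes did not overlap for 7 of the 9, against 54.3% of all called and 4.08% of all tested probes. Among the 7 are *Fgf3* and the dimmer *Fgf8* probe, which passed the filter through the control pools.

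In the male pools 11 of the 12 tested ligand probes, among them all 9 called ones, had a ratio farther from 0 than in the female pools. The share of all tested probes with this order was not counted, and probes of the same gene are not independent, so the count is a description. With Agilent's processed signals *Fgf3* was farther from 0 in females (-1.20) than in males (-1.12). *Fgf8* (A_55_P2101508) had a log2 ratio of -0.79 in females and -1.06 in males, and *Fgf18* (A_55_P1976356) one of 0.21 in females and 0.43 in males. *Fgf10* had nearly the same value in both, -0.46 in females and -0.47 in males. None of these differences passed the test. For the interaction of genotype and sex limma called 0 of 27963 probes, with 735 at an unadjusted p below 0.05 and 884 with Agilent's processed signals. Of the ligand probes 3 had such an unadjusted p, for *Fgf8* (0.0472), *Fgf18* (0.0417) and *Fgf1* (0.0413), all with an adjusted p of 1.00. Each sex was measured on 2 arrays with the dyes swapped between them, so each dye orientation was measured once per sex.

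The other genes of the pathway were read by the brightest tested probe of each gene. By this probe 4.36% of all tested genes were called and 2.51% were called lower. Of 12 further members of the FGF family 10 were tested and 0 called, with a median log2 ratio of -0.02 against 0.00 over all tested probes. Besides secreted ligands this list holds *Fgf11*, *Fgf12*, *Fgf13* and *Fgf14*, FGF homologous factors that stay inside the cell and are not classical receptor ligands. The lowest ratios of the list were those of *Fgf12* at -0.18 (limma adjusted p = 0.0846) and, among the secreted ligands, *Fgf21* at -0.15 (0.0684). The 9 tested ligands described above had a median of -0.27. Both lists were chosen with earlier results of these data known, so the difference between them is a description and was not tested.

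Of the receptors and co-receptors, 5 of 7 were tested and 1 was called, *Fgfr3*, the receptor through which *Fgf8* acts on pillar cell precursors. Its brightest probe, A_55_P1996578, had log2 ratios of 0.92, 0.94 and 1.08 on arrays 1, 3 and 4 and its highest on array 2, with a mean of 1.11 (SE 0.065, limma adjusted p = 0.000173). A second *Fgfr3* probe, A_65_P06147, was called at 0.36 (SE 0.048, limma adjusted p = 0.00715), so the probes share the direction and not the size. *Fgfr1* had a log2 ratio of 0.20 (adjusted p = 0.0796 in the limma fit) and *Fgfr2* one of 0.01 (0.903), and neither was called. *Fgf8* was lower in the same pools in which *Fgfr3* was higher.

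Among 15 targets and feedback regulators of FGF signalling 14 were tested, and 4 were called, all lower, with 12 of the 14 below 0 and a median log2 ratio of -0.13. These were *Dusp4* (-0.33, limma adjusted p = 0.00897) and *Dusp6* (-0.21, 0.0258), phosphatases that act on MAP kinases, and *Spry1* (-0.30, 0.0114) and *Spred3* (-0.22, 0.0352), inhibitors upstream of the kinases. The ratio of *Spred3* was above 0 on array 4 (0.06). The transcription factors *Etv4* (-0.13, 0.0844) and *Etv5* (-0.15, 0.0690) were not called. Without array 3 none of these 4 was called, and *Fgfr3* was the single called gene among the 40 tested genes of the pathway lists, while without array 1 *Spry1* and *Fgfr3* were. Of 12 genes of heparan sulfate synthesis and FGF-binding proteins, which set how ligands bind, 11 were tested and 0 called by limma.

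Markers of other cell types also moved with genotype. Of 14 listed neuron markers 13 were tested, and 9 were called lower and 1, *Isl1*, higher, with a median log2 ratio of -0.38 and the lowest at -1.75 (*Stmn3*). Of 10 markers of Schwann cell precursors 5 were called lower, with a median of -0.25. Among the 5 are *Fabp7* and *Ngfr*, which are not markers of glia alone. The paper lists *Fabp7* with genes known from the inner compartment, and it uses NGFR protein to mark pillar cells. The summed signal of the brightest neuron probes lay between 57276 and 62669 in the mutant pools and between 59626 and 62073 in the controls, and that of the Schwann cell precursor markers between 174269 and 201152 and between 179896 and 208756, so the sums overlap. All 13 tested neuron markers and all 10 Schwann cell precursor markers were well above background in all 8 pools. The neuron marker *Neurod1* was well above background in 0 of 4 mutant and 2 of 4 control pools and was not tested. Of the 12 markers of the cochlear epithelium itself *Gata3* was called higher (0.34, limma adjusted p = 0.0115) and *Jag1* lower (-0.19, 0.0352). Hair cell markers and blood and endothelial markers had 0 of 8 genes called each, and mesenchyme markers 1 of 11 (*Col1a1*, higher), with medians of 0.05, 0.10 and 0.09. The part of these cell types in the lower levels of *Fgf8*, *Fgf20*, *Fgf10*, *Fgf3* and *Fgf7* was not tested.

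**Figure D3:**
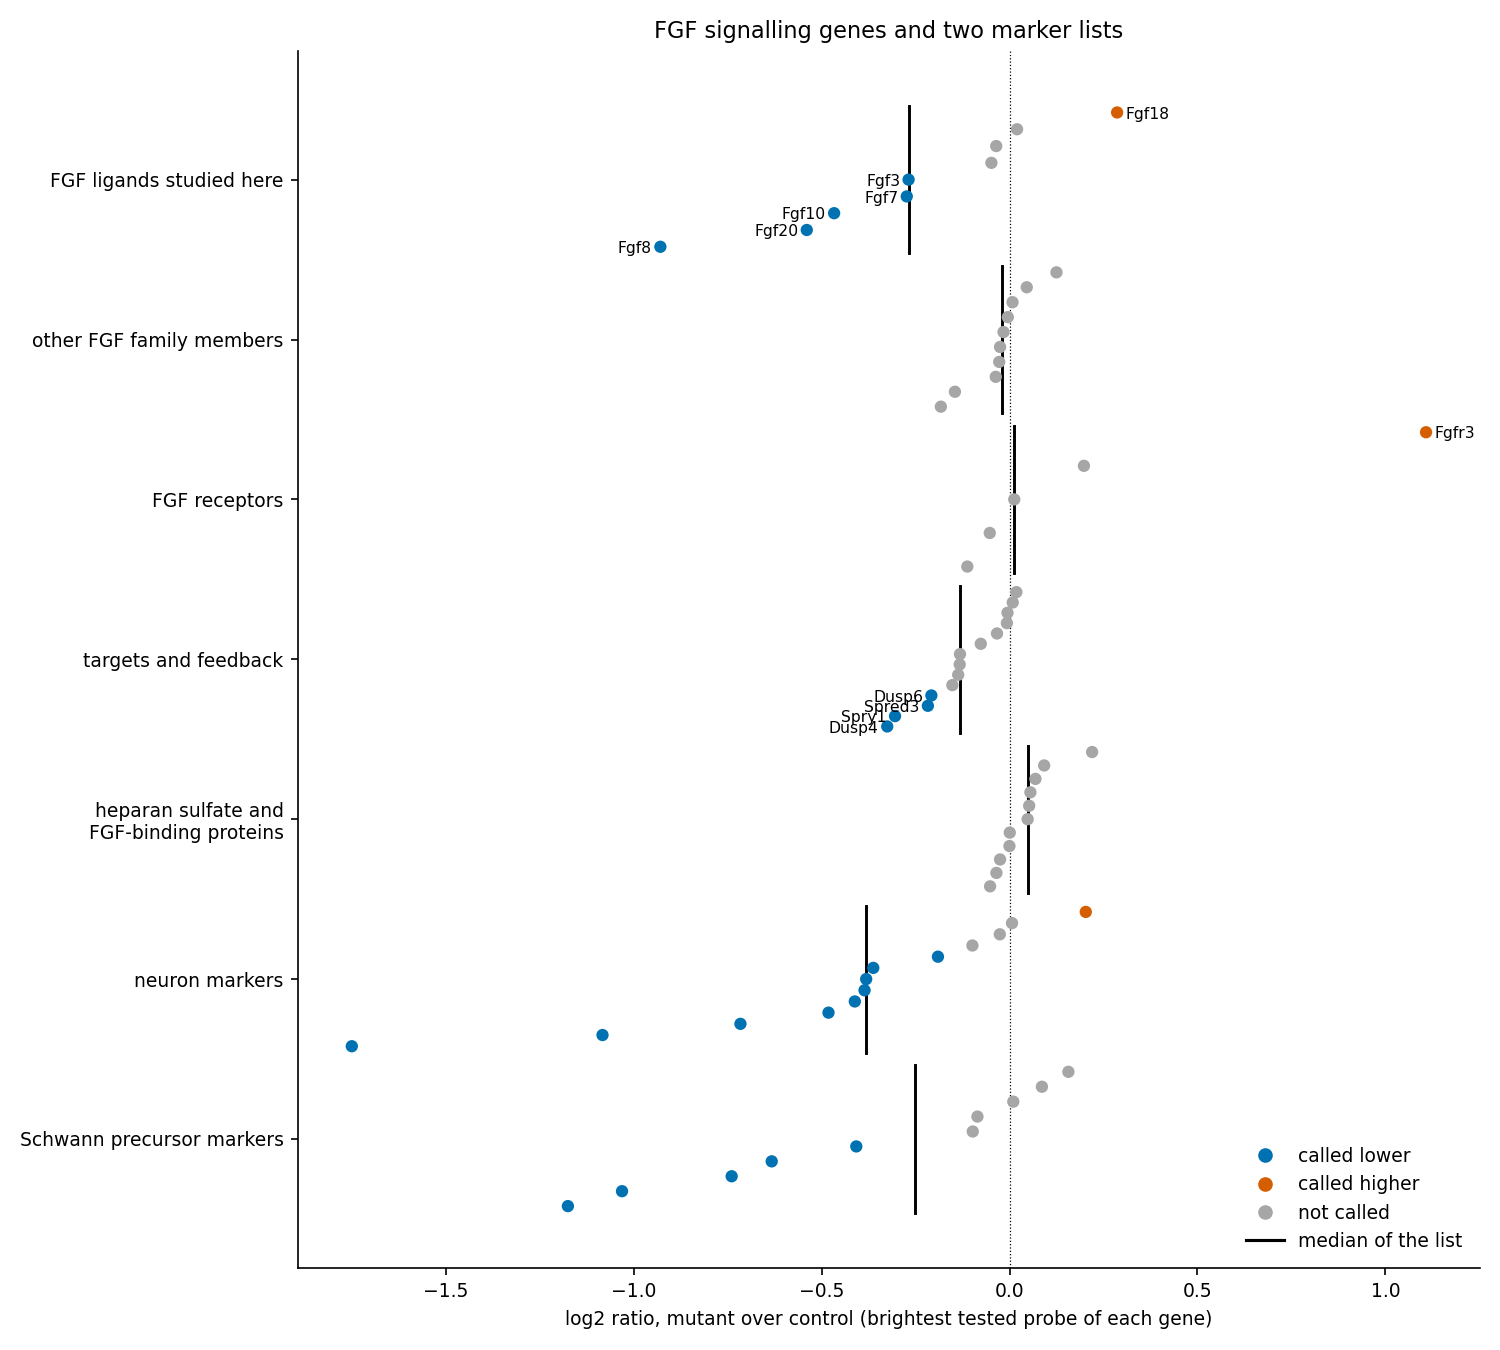
Log2 ratio of mutant over control of the tested genes (points, 1 per gene) of the FGF ligands described here, of the other pathway lists and of the marker lists for neurons and Schwann cell precursors, with the median of each list as a vertical line and called genes of the first 4 lists named. *Fgfr3* stands apart at 1.11, the targets called lie between -0.33 and -0.21, and the ligands extend down to -0.93.

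For each called ligand probe the 5 genes with the most similar course over the 8 pools were sought, after centring each dye. Each gene was represented by its brightest tested probe. The Pearson correlations lay between 0.971 and 0.998, over pools that share genotype and array, and are a description. The brighter *Fgf8* probe was most like *Krt23*, *Styk1*, *Dhrs2*, *Adgrg6* and *Trhr*, and 2 of them, *Krt23* and *Trhr*, were also among the 5 of the dimmer *Fgf8* probe, with *Gpm6b*, *Pkd2l1* and *Pdzph1*. *Trhr*, the receptor of thyrotropin-releasing hormone, had a log2 ratio of -1.17 (limma adjusted p = 0.000271). *Fgf10* was most like *Igsf11* (r = 0.998), the unnamed transcript NAP001637-001, *Gm6524*, *Tmprss4* and the neurotrophin gene *Ntf3*, whose log2 ratio was -0.35 (limma adjusted p = 0.00149).

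The *Fgf20* probe A_55_P2180059 was most like *Mageb3*, *Gad1*, *Anxa11*, *Prkd1* and *Kndc1*. The *Fgf18* probes shared *Ctrc* and *Stard8*, and none of the genes most like *Fgf18* was called by limma. *Fgf3* was most like 6720432D03Rik, *Xdh*, *Fbp1*, *Ugt8a* and *Krtap5-5*, and *Fgf7* like *Gareml*, *Fancb*, *Myrfl*, *Gas7* and *Col5a3*.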

How the data were processed

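For each of 4 two-colour arrays the authors deposited a scanner table made with Feature Extraction software (Agilent, version 10.7.3.1 per the labels), with intensity values of spot mean, local background and processed signal for both dyes, and flags for outliers and for signal well above background. The deposited series table gives 1 score for every probe on every array. Its columns have a median of 1 each and follow signed fold changes, mutant relative to control (r between 0.912 and 0.942 with the ratios computed here), so scale and direction were settled this way, whereas its centring and normalization are not given in the sources used here. The array header names another design than the methods; probe names, symbols and mm9 positions are those of the files.

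Background was corrected with limma 3.58.1 (R 4.3.3) by normexp with an offset of 50, followed by loess within arrays without control and outlier spots. Signals per pool came from Aquantile between arrays, and values of the 4 spots per probe were averaged. A measurement counted as well above background where at least 50% of a probe's spots did. Of 39429 probes 27963 were tested with lmFit and eBayes, with genotype direction and a dye intercept (2 residual and 5.57 prior degrees of freedom) and Benjamini-Hochberg adjustment. The methods describe the pools as independent, and 4 arrays limit the precision. Ratios are paired by hybridisation. The genotype by sex interaction was fitted in the same way, and the fits were tested on simulated data. The offset lowers ratios of dim probes. Genes named are the 10 ligands, *Fgfr3*, *Tbx2*, the called pathway genes and the 5 genes most like each called probe, of which those of *Fgf20* A_55_P2169499 are not reported here; genes named beside these were chosen after their values were seen. The ligands and gene lists were chosen with earlier results of these data known. Alternatives were other background corrections, centring, filters, dye and pairing terms, probe summaries, the series table and leaving out each array. No mm9 genome, protein sequence or E18.5 array was used here.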

Additional observations from a re-analysis of the deposited data

Results flagged for a closer look

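Of 36 groups of 4 values examined for the tested ligand probes, 1 had a value apart from the others by Dixon's criterion. Among the control pools of *Fgf9*, that of array 1 had a log2 signal of 13.95 against 13.87 to 13.88 in the other 3, a gap of 0.847 of the whole range. Chance flags about 1 in 20 such groups, and the cause was not tested.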

How the results depend on the processing

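All values of the 9 called ligand probes kept their sign under the alternatives run, and 108 of 130 stayed on the same side of the threshold. Other filters, other dye or pairing terms and the choice of the brightest probe leave the log2 ratio of a probe as reported, so its sign could not change there. It could change only with other background corrections, centring, outlier spots, the series table or an array left out. *Fgf8*, *Fgf10* and the *Fgf20* probe A_55_P2180059 were called in each, except that a minimum change of 1.5-fold left the *Fgf8* probes alone. Of the ligand probes 9 were called as reported (3.99% of all tested probes), 5 without a dye term (1.12%), 4 with unpaired channels (0.908%), 2 with a minimum change of 1.5-fold (0.372%), and between 5 and 9 when 1 array was left out (5 without array 3, with 1.56% of all probes). The calls lost without a dye term were *Fgf3* (adjusted p = 0.0774), *Fgf7* (0.0615) and both *Fgf18* probes (0.106 and 0.0953), and with unpaired channels also *Fgf20* A_55_P2169499 (0.0539). With no filter on dim probes 10 of 16 were called (2.71% of all probes), the further one being *Fgf15*. The fit with the array as a replicate block is equivalent to the reported fit of ratios. Its 9 calls and its values among the 130 were therefore bound to be the same and are no separate check. Of the pathway genes 5 were called as reported, 3 with processed signals, 3 without a dye term, and between 1 and 6 when 1 array was left out. The cause of these differences was not tested. All 4 arrays lay on 1 slide with 1 scan time, so a slide or scan block was not run. *Fgf3*, *Fgf15* and the dimmer *Fgf8* probe are limited by their signal over background. The tested *Fgf2* probe was dim as well, though well above background in every pool.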
